A study of Mus musculus with 10 samples.

Results

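The 9 genes described here encode the antigen receptor of B lymphocytes and proteins that mark B cell identity. They are Cd79a, Cd79b, Ighm, Ighd, Pax5, Cd22, Fcrla, Ms4a1 and Ly6d. They were taken by name, by matching the Ensembl identifiers of the deposited tables to the GENCODE M21 annotation, and all 9 were found among 45786 genes. All 9 passed the filter on low counts that left 15625 genes to test. RNA was sequenced from whole lung cell suspensions of C57BL/6J mice, a common inbred laboratory strain. The irradiated group had received 12.5 Gy of γ-rays to the whole thorax, and the control group was age matched at 0 Gy. Each group was collected at 24 hours and at 1, 4, 12 and 32 weeks, with 1 pool per time and the RNA of 3 mice in each pool, which gave 5 irradiated and 5 control pools. The labels give neither the age nor the sex of the mice. A pool averages its mice, so the spread between mice was not measured, and p-values describe the spread between pools. The suspension was not sorted for B cells.

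A B cell senses antigen through a membrane immunoglobulin whose heavy chain is encoded by Ighm or Ighd in cells that have not switched class. The immunoglobulin has almost no cytoplasmic tail, and the Cd79a and Cd79b chains that accompany it carry the signal into the cell. Pax5 is the transcription factor that holds cells to the B lineage, and plasma cells, the antibody-secreting descendants of B cells, shut it off. Lymphocytes are among the most radiation-sensitive cells of the body, and the lung holds B cells in its vessels and around its airways.

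The genes lie on separate chromosomes apart from 2 pairs. Cd79a is ENSMUSG00000003379 (chromosome 7, 24897381 to 24902197, + strand) and Cd22 is ENSMUSG00000030577 (chromosome 7, 30865402 to 30880342, - strand). Ighm is ENSMUSG00000076617 (chromosome 12, 113418558 to 113422730, - strand) and Ighd is ENSMUSG00000104213 (chromosome 12, 113406604 to 113416324, - strand), both annotated as immunoglobulin constant region genes. Cd79b is ENSMUSG00000040592 (chromosome 11, 106311341 to 106314762, - strand), and Pax5 is ENSMUSG00000014030 (chromosome 4, 44524757 to 44710487, - strand). Fcrla is ENSMUSG00000038421 (chromosome 1, 170917576 to 170927583, - strand), Ms4a1 is ENSMUSG00000024673 (chromosome 19, 11249675 to 11266241, - strand), and Ly6d is ENSMUSG00000034634 (chromosome 15, 74762056 to 74763620, - strand). Apart from the immunoglobulin genes they are annotated as protein coding, and these coordinates are those of GENCODE M21 (GRCm38). The libraries did not mark strand, so reads of an overlapping gene on the other strand cannot be told apart. Cd22 is overlapped by Gm29439, which had at most 204 fragments in any pool, against at least 1219 for Cd22. Pax5 is overlapped by 5730488B01Rik, which had at most 40 fragments, against at least 34 for Pax5, so the Pax5 counts are uncertain. The other genes overlapping Pax5, Fcrla and Ms4a1 had at most 7 fragments in any pool.

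RefSeq promoter windows, 250 bases before to 50 bases after the annotated start, were at hand for Cd79a, Cd22, Fcrla and Pax5 (GRCm38.p6). These starts can differ from the GENCODE M21 ends given above. The Cd22 window lies wholly inside the GENCODE gene, and the Pax5 window (44710645 to 44710944) lies wholly outside it. The windows of Cd79a and Fcrla are shown because both genes were lower in the irradiated pool of 24 hours, and that of Cd22 because its log2 difference there was the smallest of the 9. They are written in the direction of transcription, and capitals mark the motifs.
Cd79a (chr7:24897247-24897546, + strand): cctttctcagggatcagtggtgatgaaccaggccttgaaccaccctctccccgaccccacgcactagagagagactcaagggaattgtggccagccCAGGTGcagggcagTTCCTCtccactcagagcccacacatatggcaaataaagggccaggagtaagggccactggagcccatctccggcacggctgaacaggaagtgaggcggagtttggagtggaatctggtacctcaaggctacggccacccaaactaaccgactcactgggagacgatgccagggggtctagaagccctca
Fcrla (chr1:170927534-170927833, - strand): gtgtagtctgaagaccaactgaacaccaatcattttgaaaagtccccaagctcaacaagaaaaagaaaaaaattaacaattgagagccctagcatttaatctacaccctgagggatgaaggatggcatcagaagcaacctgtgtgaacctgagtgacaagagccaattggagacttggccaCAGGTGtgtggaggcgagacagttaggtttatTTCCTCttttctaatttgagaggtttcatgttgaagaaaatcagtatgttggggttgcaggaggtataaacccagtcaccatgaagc
Cd22 (chr7:30878979-30879278, - strand): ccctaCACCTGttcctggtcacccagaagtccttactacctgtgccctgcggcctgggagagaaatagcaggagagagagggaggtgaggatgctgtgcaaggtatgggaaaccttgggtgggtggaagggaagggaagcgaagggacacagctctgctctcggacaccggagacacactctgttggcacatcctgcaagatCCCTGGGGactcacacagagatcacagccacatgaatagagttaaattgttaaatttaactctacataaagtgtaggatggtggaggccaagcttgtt
Motifs of B cell transcription factors were searched on both strands. The E-box CAGGTG, bound by E2A, lay in 3 of the 4 windows, Cd79a, Fcrla and Cd22, and in 20.2% of all 32851 promoter windows. The core GAGGAA, bound by PU.1, lay in the windows of Cd79a and Fcrla (28.3% of all windows), and the core CCCNNGGG, bound by EBF1, in that of Cd22 (13.7% of all windows). The octamer ATGCAAAT was in none of the 4 (1.74% of all windows), and the Pax5 window held none of the 4 motifs. No 2 of these motifs overlapped. The matches describe the letters of these windows, and binding was not measured.

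Sequencing depth ranged from 8679547 to 17473108 fragments per pool. Levels are given as CPM, counts scaled to the size of the library and by TMM factors, which do not correct for gene length, and as the FPKM values that the authors deposited, which do. The response of the lung to radiation was visible in Cdkn1a, a p53 target that arrests the cell cycle, which had 517, 274.9, 185.7, 109.9 and 82.8 CPM in the irradiated pools in time order, against 75, 72.7, 58.9, 48.3 and 68.4 CPM in the controls. The irradiated pools of 12 and 32 weeks stood apart in lung epithelial genes: Sftpc, a surfactant gene of alveolar type 2 cells, had 4967.1 and 5940.5 CPM there and 31766.6 to 43777.1 CPM in the earlier irradiated pools, against 18591.4 to 32378.7 CPM in the controls. The summed CPM of 8 lung tissue markers was 8738.5 and 21815.7 in these 2 pools, against 26251.1 to 37466.7 in the controls, and 15199.7 of the 32-week sum came from the club cell gene Scgb1a1. Red cell markers, 5 genes summed, ranged from 22269.7 to 70380 CPM in irradiated pools, against 7517.6 to 68796.4 CPM in controls. Markers of basal and squamous epithelium, a source of Ly6d outside the B lineage, were near 0, with sums of 2.01 to 4.49 CPM in irradiated pools, against 1.61 to 5.84 CPM in controls over 7 genes.

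Per length, Ighm was the most abundant of the 9 genes, with a median of 405.8 FPKM in irradiated pools, against 564.8 FPKM in controls. Cd79b, Ly6d and Cd79a followed with medians of 171.9, 167.7 and 114.4 FPKM in irradiated pools, against 160.2, 181 and 132.2 FPKM in controls, and their ranges overlapped. Ighd, Ms4a1, Cd22 and Fcrla had medians of 81.4, 45.9, 33.1 and 19.3 FPKM in irradiated pools, against 74.9, 37.8, 33.8 and 23 FPKM in controls. Pax5 was the lowest, with a median of 2.12 FPKM in both groups. The deposited counts and FPKM values of Pax5 did not move together: the count per unit of FPKM ranged from 8.45 to 98.5 between pools, against a span of at most 1.64-fold for each of the other genes. Comparisons below therefore use the counts.

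The receptor and identity genes were low in the irradiated lung at the 2 earliest times and mixed in direction at the later times. Against the same-time control, the median of the 9 log2 differences in CPM was -1.13 at 24 hours, -0.97 at 1 week, 0.07 at 4 weeks, 0.08 at 12 weeks and -0.21 at 32 weeks. The number of genes lower in the irradiated pool was 8, 9, 1, 2 and 6 of 9 in that order. The median over all tested genes stayed between -0.0 and 0.03. The sum of the 9 genes without Ighm was 686.6 and 919.6 CPM in the irradiated pools of 24 hours and 1 week, against 1364.7 and 1833.7 CPM in their controls. In whole-lung RNA, fewer B cells and less RNA per B cell cannot be told apart.

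**Figure D1:**
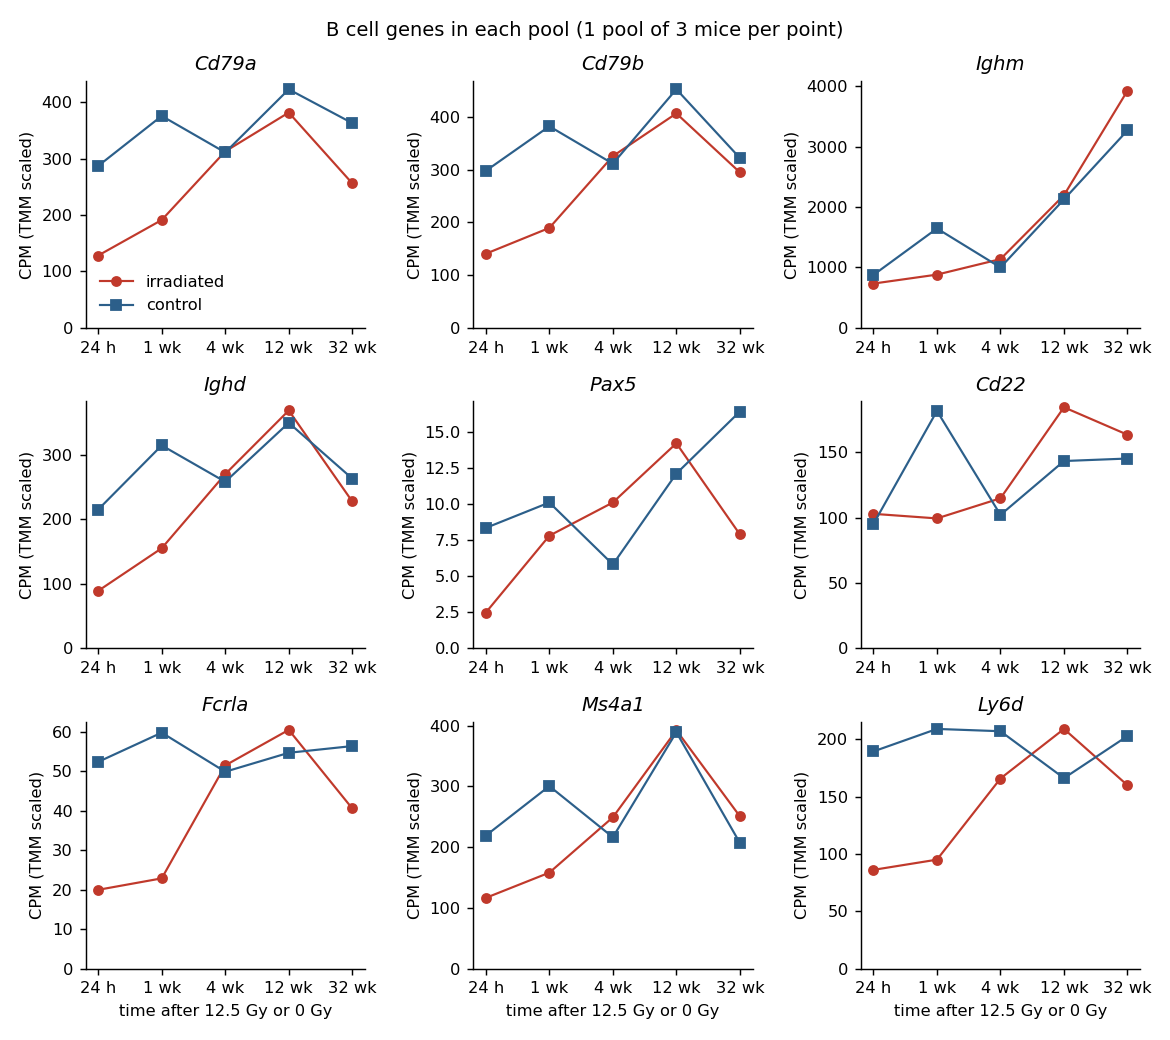
TMM-scaled CPM of the 9 genes in each pool (y axis, from 0) by time (x axis, not to scale), irradiated in red circles and control in blue squares, 1 pool of 3 mice per point. Cd79a, Cd79b, Ighd, Fcrla, Ms4a1 and Ly6d lie below every control at 24 hours and 1 week, all of them but Ly6d lie among the controls at 4 weeks, and Ighm climbs to 3925.4 CPM in the irradiated pool of 32 weeks, against 3268.8 CPM in its control.

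The signalling chains of the receptor fell at 24 hours. Cd79a had 128.3, 191.2, 312.7, 381.5 and 256.1 CPM in the irradiated pools from 24 hours to 32 weeks, against 287, 375.5, 310.8, 422.6 and 362.8 CPM in the controls. Its partner Cd79b had 140.7, 189.6, 325.7, 406.7 and 294.9 CPM in the irradiated pools, against 297.8, 382.3, 311.4, 452.5 and 322.2 CPM in the controls. For both genes the irradiated pools of 24 hours, 1 week and 32 weeks lay below all 5 controls, and those of 4 and 12 weeks lay within the range of the controls. The ratio of Cd79a to Cd79b fragments stayed between 0.868 and 1.01 in irradiated pools, against 0.934 to 1.13 in controls, so the 2 chains kept close to each other. In edgeR's quasi-likelihood test of the irradiated pool of 24 hours against the 5 controls, Cd79a was lower by a log2 difference of -1.45 ± 0.24 (SE, adjusted p = 0.0251) and Cd79b by -1.33 ± 0.26 (adjusted p = 0.0442).

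The 2 heavy chain constant regions had different courses over the study, and the difference between them was not tested. Ighd, the chain of mature naive B cells, had 89.3, 155.4, 270.4, 369.2 and 228 CPM in the irradiated pools, against 215.5, 315, 258.5, 350.1 and 263.5 CPM in the controls. It was below all controls at 24 hours and 1 week, and at 24 hours it fell by 1.65 on the log2 scale in the edgeR test (SE 0.28, adjusted p = 0.0251). Ighm, the chain of naive B cells and of IgM-secreting plasma cells, had 734, 882.2, 1138.6, 2196.3 and 3925.4 CPM in the irradiated pools, against 877, 1645.6, 1000.4, 2126.8 and 3268.8 CPM in the controls. Both groups were highest at 32 weeks. Against the same-time control the Ighm log2 difference was -0.26 at 24 hours and 0.26 at 32 weeks. The edgeR test sets each irradiated pool against controls of all 5 times, so its Ighm values include the differences between control times. The Ighm log2 difference at 24 hours was -1.28 ± 0.70 in the edgeR test (SE, adjusted p = 0.542), and the irradiated pool lay below all 5 controls there and above all 5 at 32 weeks (1.14 ± 0.58, adjusted p = 0.388). In a fit to all 10 pools with a slope for each group, the Ighm slope in the controls was 0.21 ± 0.06 per doubling of time. This is on the log2 scale (SE, unadjusted p = 0.0049, adjusted p = 0.998 with edgeR). For the slope in the controls 0 of 9 genes were called with edgeR, and 0.0% of all genes. In that fit 1 of the 9 and 673 of all 15625 genes had an unadjusted p under 0.05. DESeq2 called 0 of the 9, and 26 of all 15625 genes. 

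Fragments of Ighm outnumbered those of Ighd by 8.22, 5.67, 4.21, 5.95 and 17.2 times in the irradiated pools in time order, against 4.07, 5.23, 3.87, 6.08 and 12.4 times in the controls. The ratio was highest at 32 weeks in both groups, and it was also higher at 24 hours in the irradiated pool than in any control before 32 weeks. Ighm alone made up 51.7%, 49%, 43.2%, 52.1% and 73.7% of the summed CPM of the 9 genes in irradiated pools, against 39.1%, 47.3%, 40.6%, 51.7% and 67.5% in controls. Jchain, which joins the units of secreted IgM and IgA, had 54.4, 27.2, 52.2, 289.6 and 1014.4 CPM in the irradiated pools, against 39.5, 91.2, 48.2, 296.1 and 455.7 CPM in the controls, and was chosen after its values were seen. The summed CPM of 12 plasma cell and switched immunoglobulin markers was 3575.9 in the irradiated pool of 32 weeks, against 1828.6 in its control, and 761.7 to 1385 in the other irradiated pools, against 610.6 to 1158.2 in the other controls. In the edgeR test 0 of the 11 tested markers were called at any of the 5 times (2 or 3 at an unadjusted p under 0.05 at each time). The part of plasma cells in the Ighm values was not tested.

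**Figure D2:**
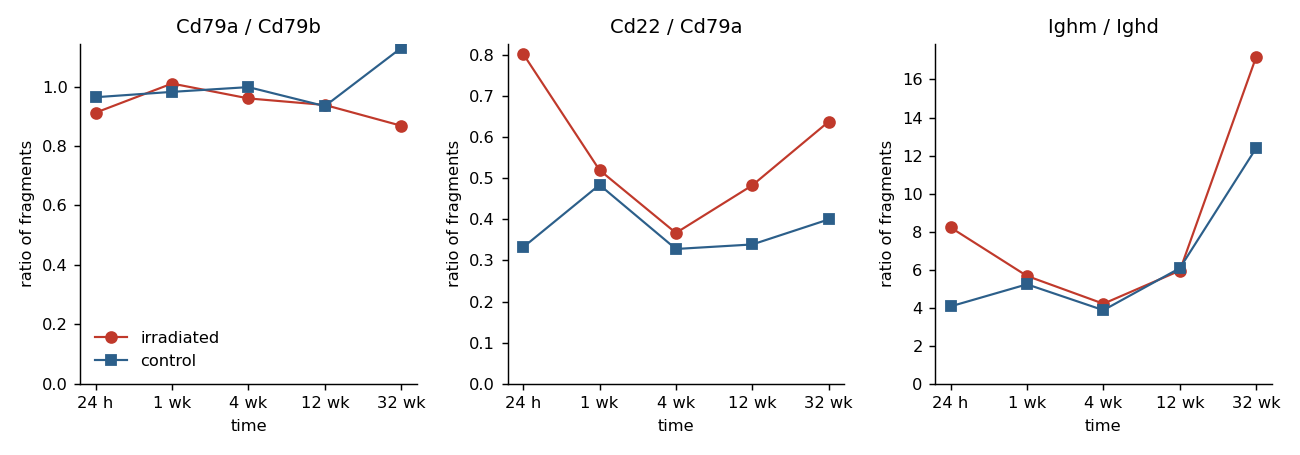
Ratio of fragments of 2 genes in each pool (y axis, from 0) by time (x axis, not to scale), irradiated in red circles and control in blue squares. Cd79a over Cd79b stays between 0.868 and 1.13 in all pools, Cd22 over Cd79a is 0.803 in the irradiated pool of 24 hours against 0.332 in its control, and Ighm over Ighd reaches 17.2 in the irradiated pool of 32 weeks against 12.4 in its control.

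Pax5 was counted at low levels. It had 2.48, 7.8, 10.1, 14.2 and 7.89 CPM in the irradiated pools, against 8.34, 10.1, 5.81, 12.1 and 16.4 CPM in the controls. The irradiated pool of 24 hours was below all controls, and the other irradiated pools lay within their range. The log2 difference at 24 hours, -2.08 ± 0.59 (SE), was the largest of the 9 but did not pass the edgeR test (adjusted p = 0.179).

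Cd22, an inhibitory coreceptor that binds sialic acid and dampens receptor signals, differed least from the controls at 24 hours. It had 102.9, 99.4, 114.8, 184.4 and 163.4 CPM in the irradiated pools, against 95.2, 181.6, 102.1, 143.3 and 145.2 CPM in the controls. The groups overlapped, and at 24 hours it was the 1 gene of the 9 not below its control in CPM. In the deposited FPKM it was below, at 19.8 FPKM in the irradiated pool against 20.8 FPKM in its control, so its direction there turned with the scale. Its log2 difference from the 5 controls at 24 hours was -0.37 ± 0.32 (SE, adjusted p = 0.736 with edgeR). Fragments of Cd22 per fragment of Cd79a were 0.803, 0.52, 0.367, 0.483 and 0.638 in the irradiated pools, against 0.332, 0.484, 0.328, 0.339 and 0.4 in the controls, higher in the irradiated pool at every time. The ratios of Ighm and of Ms4a1 to Cd79a were also higher in the irradiated pool at every time, at 5.72 against 3.06 and 0.909 against 0.763 at 24 hours. None of these ratios was tested.

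Fcrla, an intracellular Fc receptor-like protein of B cells, had the narrowest spread in the controls. It had 20, 22.9, 51.5, 60.5 and 40.6 CPM in the irradiated pools, against 52.4, 59.8, 49.9, 54.7 and 56.4 CPM in the controls, whose SD was 3.78 CPM around a mean of 54.7 (n = 5). The irradiated pools of 24 hours, 1 week and 32 weeks were below every control, and that of 12 weeks was above every control. At 24 hours Fcrla was lower by a log2 difference of -1.45 ± 0.21 in the edgeR test (SE, adjusted p = 0.0134), the smallest adjusted p of the 9 genes.

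Ms4a1, which encodes the surface protein CD20, had 116.6, 158.1, 249.1, 392.2 and 250.7 CPM in the irradiated pools, against 219, 300.4, 216.3, 389 and 207 CPM in the controls. The irradiated pools of 24 hours and 1 week were below all controls. The log2 difference at 24 hours was -1.19 ± 0.35 (SE, adjusted p = 0.191 with edgeR). Ly6d, a small surface protein that marks commitment to the B lineage and is also carried by plasmacytoid dendritic cells and squamous epithelium, had 86.2, 95.1, 165.8, 209 and 159.9 CPM in the irradiated pools, against 189.4, 209, 207, 166.1 and 202.8 CPM in the controls. The irradiated pools of 24 hours, 1, 4 and 32 weeks were below all controls, and at 24 hours Ly6d was lower by a log2 difference of -1.18 ± 0.20 in the edgeR test (SE, adjusted p = 0.0251).

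**Figure D3:**
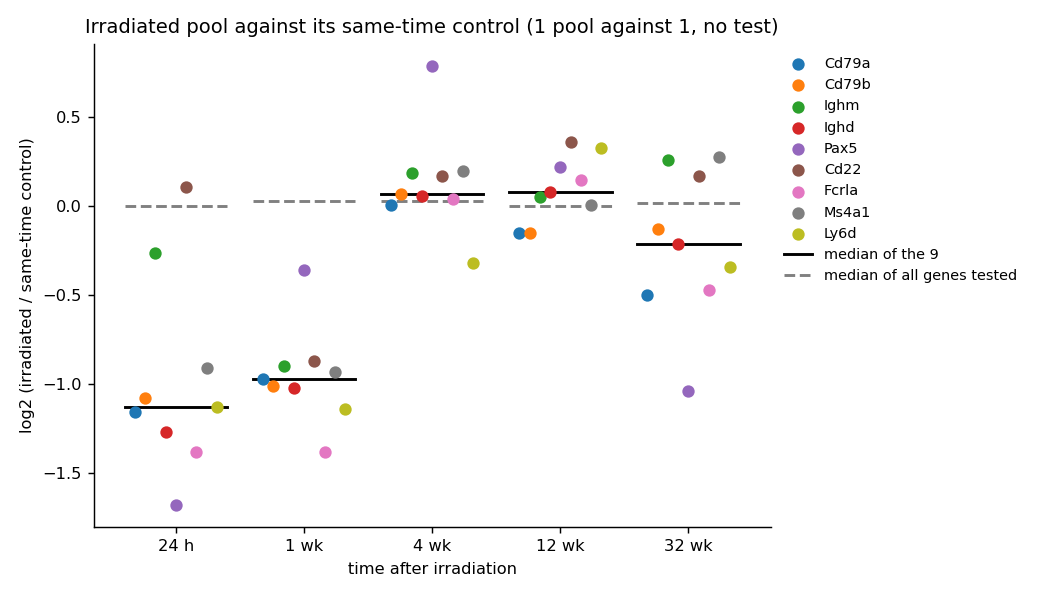
Log2 ratio of the CPM in the irradiated pool to that in its same-time control (y axis) for each of the 9 genes by time (x axis), with the median of the 9 as a black line and the median of all genes tested as a grey dashed line. The black line lies at -1.13 and -0.97 at 24 hours and 1 week and at 0.07, 0.08 and -0.21 at the later times, and each point is 1 pool against 1.

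In the edgeR test at 24 hours, 5 of the 9 genes were called lower at an adjusted p under 0.05, namely Cd79a, Cd79b, Ighd, Fcrla and Ly6d, where 0.454% of all 15625 genes were called lower. The median log2 difference of the 9 was -1.33, against -0.01 over all genes, and 9 of 9 were below 0. Without the control of 1 week only Fcrla was called, although the log2 differences of Cd79a, Cd79b, Ighd and Ly6d were then -1.43, -1.30, -1.61 and -1.15. Without that of 32 weeks 4 genes were called, and DESeq2 called 7 of the 9. On the deposited FPKM values (log2 of FPKM + 1) limma called 0 of the 9, and 103 of all genes it tested, in either direction. Its log2 differences were -1.06 to -1.46 for the 5 genes called with edgeR. By range, 8 of the 9 genes, all but Cd22, were below all 5 controls at 24 hours, where 21.2% of all genes were.

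At 1 week the 9 genes were again below 0 in the edgeR test, with a median log2 difference of -0.88 and a range of -1.26 for Fcrla to -0.42 for Cd22. None of the 9 was called with edgeR (5 at an unadjusted p under 0.05, adjusted p of 0.151 to 0.848). With edgeR 0.0192% of all genes were called. DESeq2 called 5 of the 9, and 252 of all genes it tested. By range, 6 of the 9 were below all 5 controls, where 18.8% of all genes were.

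At 4 weeks 8 of the 9 genes lay within the range of the controls. In the edgeR test at 4 weeks 0 of 9 were called, 0 also at an unadjusted p under 0.05, and 0.0576% of all genes. DESeq2 called 0 of the 9, and 95 of all genes it tested. By range only Ly6d was below all 5 controls, where 16.8% of all genes were. Its 165.8 CPM was close to the 166.1 CPM of the lowest control, that of 12 weeks, and its same-time control had 207 CPM. At 12 weeks 0 of 9 were called with edgeR (0 at an unadjusted p under 0.05, 0 with DESeq2, and 0.0% of all genes), with a median log2 difference of 0.30. Ighd, Cd22, Fcrla, Ms4a1 and Ly6d were above all 5 controls at 12 weeks, where 21.9% of all genes were, and Ly6d was so at a CPM equal to the highest control as rounded here. The irradiated pools of 12 and 32 weeks are the 2 with low alveolar markers, and the part of this in their B cell values was not tested.

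At 32 weeks 0 of 9 were called with edgeR (1 at an unadjusted p under 0.05, 0 with DESeq2), and 0.826% of all genes were. Cd79a, Cd79b, Fcrla and Ly6d were below all 5 controls, where 23.3% of all genes were, and Ighm was above all 5, where 25.5% of all genes were. At 32 weeks the 2 scales differed by a shift of all genes: the median same-time log2 difference of the 9 was -0.21 in CPM and 0.18 in the deposited FPKM, in which the median of 8330 well-measured genes itself stood at 0.35. Relative to that median the FPKM value of the 9 was -0.17, close to the CPM value.

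**Figure D4:**
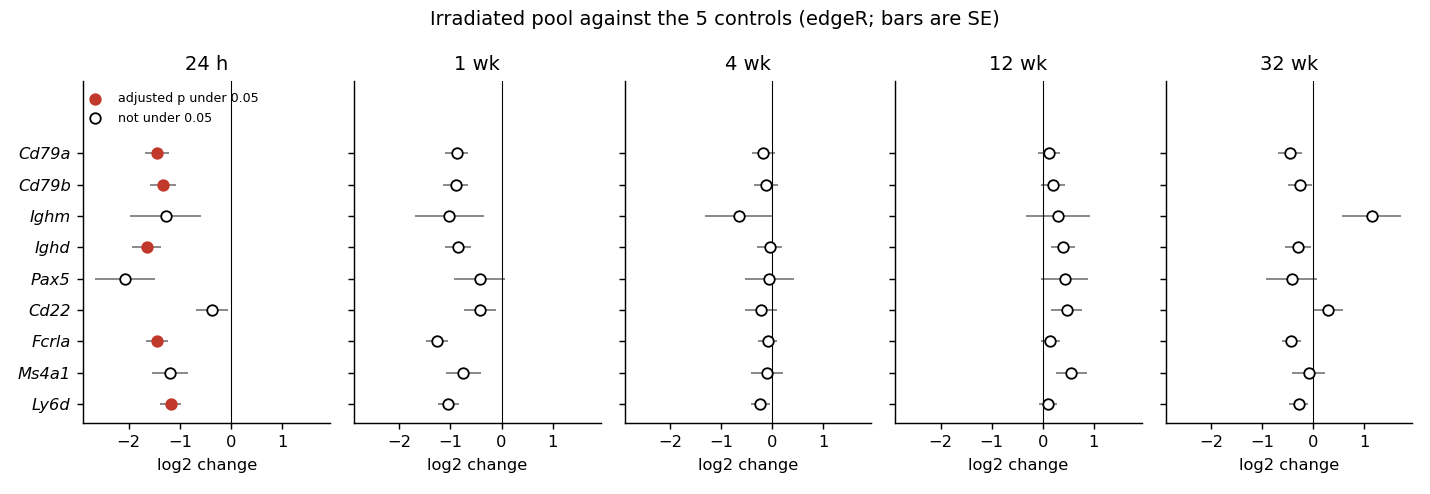
Log2 difference of each irradiated pool from the 5 controls (x axis) for the 9 genes (rows) at each time (panels) from edgeR, with bars of 1 SE, filled points at an adjusted p under 0.05 and open points otherwise. The 5 filled points are all at 24 hours, at -1.65 to -1.18, and the points of 4 weeks lie at -0.65 to -0.05.

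Taking all 5 times with time as a block, the fitted log2 differences had a median of -0.46 and a range of -0.60 ± 0.25 for Fcrla to -0.01 ± 0.17 for Cd22 (SE). The irradiated pool was below its same-time control at 1 of the 5 times for Cd22 and at 2 for Ighm and Ms4a1. No gene was called with edgeR (adjusted p of 0.324 to 0.994), where 0.0% of all genes were. In that fit 4 of the 9 and 1732 of all 15625 genes had an unadjusted p under 0.05. DESeq2 called 0 of the 9, and 258 of all 15625 genes. The dependence of the difference on time was tested directly. The log2 difference between irradiated and control pools increased by 0.06 to 0.18 per doubling of time for the 9 genes. With edgeR 0 of 9 were called (adjusted p of 0.679 to 0.859), and 0.0% of all genes. Here 6 of the 9 and 1095 of all 15625 genes had an unadjusted p under 0.05. DESeq2 called 0 of the 9, and 60 of all 15625 genes. When the 3 later times were set against the 2 earliest, the change was 0.61 to 1.29, largest for Fcrla. With edgeR 0 of 9 were called (adjusted p of 0.382 to 0.833), and 0.0% of all genes. Here 7 of the 9 and 1072 of all 15625 genes had an unadjusted p under 0.05.

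Over the 10 pools the genes tracked each other to different degrees. Pearson's r of each gene's log2 CPM with the mean of the others was 0.96 for Cd79b and Ighd, 0.95 for Cd79a, 0.91 for Fcrla and 0.90 for Ms4a1. It was 0.84 for Ly6d, 0.83 for Pax5, 0.68 for Cd22 and 0.65 for Ighm. The pools share library depth and cell composition, so these values describe the 10 pools. Among 12360 genes with a mean of at least 50 counts, those most like the mean of the 9 included Blk (r = 0.969), Arhgap15 (0.962), Rfc5 (0.961), H2-Ob (0.958), Plk4 (0.958), Il7r (0.953), Cxcr5 (0.952), P2ry10 (0.947) and Ebf1 (0.945).

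Other B cell genes at 24 hours followed the 9 in part. Of 22 B cell surface and homing genes 4 were called lower with edgeR and 0 higher, and 22 of 22 were below 0 with a median log2 difference of -0.92, where 0.454% of all genes were called lower and 51.3% were below 0. Cxcr5, the receptor that draws B cells to follicles, had 11.8 CPM in the irradiated pool of 24 hours, against 35.3 CPM in its control and 37.1 to 63.2 CPM in the later controls (log2 difference from the 5 controls -2.01 ± 0.36 SE, adjusted p = 0.0347). Fcer2a, the low-affinity IgE receptor CD23, had 29.4 CPM, against 68.3 CPM in its control (-1.78 ± 0.35, adjusted p = 0.0428). H2-Ob and H2-DMb2, class II peptide-loading genes, had 35.7 and 99.2 CPM, against 107.9 and 245.7 CPM in the control, with log2 differences of -1.76 ± 0.25 (adjusted p = 0.0103) and -1.25 ± 0.23 (adjusted p = 0.039).

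Of the 4 light chain constant genes, Iglc2 was called lower at 24 hours with edgeR (-1.07 ± 0.20, adjusted p = 0.0377), where 0.454% of all genes were called lower. It had 55.9 CPM in the irradiated pool, against 114.1 CPM in its control. All 4 were below 0, where 51.3% of all genes were. Of 25 genes of B cell receptor signalling 0 were called at 24 hours with edgeR, with a median log2 difference of -0.10. In that test 9 of the 25 and 1855 of all 15625 genes had an unadjusted p under 0.05. Lyn had 383.9 CPM in the irradiated pool of 24 hours, against 380 CPM in its control. Many of these kinases and adaptors are shared with myeloid cells, and the part of those cells in these values was not tested. Of 14 B cell transcription factors 0 were called with edgeR (8 at an unadjusted p under 0.05), with a median of -0.68 and 13 of 14 below 0. Ebf1, which acts with Pax5 in B cell commitment, had 14.8 CPM, against 25 CPM (adjusted p = 0.123). Of 8 tested B cell survival and attracting factors 0 were called with edgeR in either direction (2 at an unadjusted p under 0.05), with a median of -0.45.

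At the other times, 0 genes of these 5 lists were called with edgeR, and over the 5 times together 0 were called, with 3, 3, 2, 0 and 3 genes at an unadjusted p under 0.05 in the signalling, transcription factor, surface, light chain and survival factor lists. At 1 week those numbers were 4, 2, 11, 3 and 1 in the same order of lists. Of all 15625 genes, 1732 over the 5 times and 1484 at 1 week had an unadjusted p under 0.05 with edgeR. The genes with the smallest p over the 5 times were Pik3ap1 among the signalling genes (0.34 ± 0.13, adjusted p = 0.381), Ets1 among the transcription factors (-0.45 ± 0.15, adjusted p = 0.332), H2-Ob among the surface genes (-0.61 ± 0.26, adjusted p = 0.424), Iglc2 among the light chains (-0.29 ± 0.24, adjusted p = 0.698) and Ccl19 among the survival factors (-1.18 ± 0.42, adjusted p = 0.373).

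T cell markers, like the B cell genes, were low in the irradiated pools of 24 hours and 1 week. Natural killer cell markers were near their control at 24 hours and lower at 1 week. The 14 T cell markers summed to 372.9 and 485.8 CPM in the irradiated pools of 24 hours and 1 week. Their controls had 802.8 and 946.5 CPM. At 4, 12 and 32 weeks the sums were 1109.5, 1059.2 and 684.1 CPM, against 1635.8, 878.2 and 1708.4 CPM in the controls. The median T cell log2 difference from the same-time control was -1.15, -0.95, -0.55, 0.26 and -1.36 in time order. At 4 and 32 weeks 12 and 14 of the 14 were lower, and the controls of these times had the highest T cell sums of the controls. Against all 5 controls the median T cell log2 difference was -0.09 at 4 weeks, with 8 of 14 below 0. It was -0.77 at 32 weeks, with 14 of 14 below 0. The median of the B cell receptor and identity genes at those times was 0.07 and -0.21 against the same-time control. Against all 5 controls it was -0.12 and -0.29. Cd3d and Cd3g, chains of the T cell receptor complex, were called lower at 24 hours with edgeR (log2 differences -1.86 ± 0.35 and -1.52 ± 0.27, adjusted p = 0.0383 and 0.0316), and 14 of 14 T cell markers were below 0, where 0.454% of all genes were called lower and 51.3% were below 0. Of 7 natural killer cell markers 0 were called at 24 hours with edgeR (0 at an unadjusted p under 0.05), with 1 of 7 below 0, a median log2 difference of 0.09 and a sum of 549.6 CPM in the irradiated pool of 24 hours, against 584.2 CPM in its control. At 1 week the natural killer cell markers summed to 412 CPM in the irradiated pool, against 596.2 CPM in its control. There 7 of 7 were lower than in that control, with a median log2 difference of -0.52. The part of other lymphocytes in the B cell values was not tested.

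Among myeloid and dendritic markers, C1qb and C1qc, complement genes of macrophages, were called higher at 24 hours with edgeR (1.43 ± 0.27 and 1.44 ± 0.28, adjusted p = 0.0409 and 0.0453). They were 2 of the 8 monocyte and macrophage markers, and 94 of all 15625 genes were called higher at 24 hours. The summed CPM of the 8 was 4108.4 in that irradiated pool, against 2558.1 in its control. Of the markers of plasmacytoid dendritic cells, which also carry Ly6d, 4 of 6 were below 0 at 24 hours, with a median log2 difference of -0.94. Against the same-time control 5 of 6 were lower. The part of these cells in the Ly6d values was not tested. Of 6 plasmacytoid dendritic cell markers Bst2, which interferon also induces, was called higher (1.26 ± 0.19, adjusted p = 0.0168), while Siglech, a more specific marker, had 12.1 CPM, against 19.3 CPM in the control (adjusted p = 0.299).

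Markers of immature and activated B cells were scarce or uneven. The 6 precursor markers summed to 1.2, 2.35, 113.1, 110.7 and 31.7 CPM in the irradiated pools, against 32.2, 12.2, 229.6, 33.4 and 255.8 CPM in the controls. Rag1, Rag2 and Dntt, which T cell precursors also use, carried these sums, while Vpreb1, Vpreb2 and Igll1, the surrogate light chain genes of B cell precursors, were at most 0.767, 0.0801 and 0.307 CPM in irradiated pools, against 0.991, 0.0927 and 0.26 CPM in controls. Cd8a, a T cell marker, had 10.7, 13, 58.3, 55.2 and 25.5 CPM in the irradiated pools, against 31.4, 34.1, 88.6, 27.6 and 104.6 CPM in the controls, and was highest in the same 2 controls as Rag1. Rag1, which cuts receptor genes for rearrangement in precursors of both B and T cells, was at 0 in the irradiated pools of 24 hours and 1 week, against 4.87 and 4.13 CPM in their controls. The 5 germinal centre markers summed to 52 to 76 CPM in irradiated pools, against 61.8 to 74.4 CPM in controls. None of the 3 tested genes of either list was called at any of the 5 times with edgeR (at most 1 of a list at an unadjusted p under 0.05 at each time).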

How the data were processed

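RNA of 3 mice per pool was made into libraries with the Clontech ultralow and Illumina NexteraXT kits, per the labels' protocols. Trimmomatic 0.32, STAR 2.4.2a, Cufflinks 2.0.2, Cuffdiff and the build GRCm38.p4 are named in the submitters' processing notes, with no roles. The gene annotation is not given in the sources used here. Estimated counts, as deposited by the authors, were on a common scale, in steps of 0.5763 to 1.3847 per fragment (74.7% to 80.6% of values were whole multiples within 0.05), beside the FPKM values that the authors deposited. Counts were rounded and tested with edgeR 4.0.16 (quasi-likelihood, TMM factors from the 10 pools, minimum count 10, Benjamini-Hochberg adjustment, R 4.3.3). Each irradiated pool was tested against the 5 controls, which differ in age, so the spread includes age. Fits of the difference between groups over times used time as a block, because pools of 1 number share a time. With 1 pool per time and group this pairing comes from the labels. The slope in the controls was fitted to all 10 pools with a slope for each group and no block. DESeq2 1.42.0, limma 3.58.1 on log2(FPKM + 1) and log2(FPKM + 0.1), other scalings, no filter and leaving out pools were alternatives. Per-gene values give all 9 members; from the other lists, every called gene or otherwise the one with the smallest p over the 5 times was named, with the 10 genes of most similar pattern, of which 1 is not reported here, and Cdkn1a, and Lyn, Ebf1, Siglech, Jchain, Scgb1a1, Cd8a and the precursor markers were named after their values were seen. The members and lists were chosen with earlier results of these data known.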

Additional observations from a re-analysis of the deposited data

How the results depend on the processing

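With 1 pool per time and group, precision rests on the spread of the 5 control pools, and no test here compares 1 irradiated pool with its own replicates. The count of 5 genes called at 24 hours was 0 with limma on log2(FPKM + 1) and 0 on log2(FPKM + 0.1), and 1 to 5 when a control was left out, 1 without the control of 1 week. At 1 week the count was 0, but 1 with no low count filter and 5 with DESeq2. At 12 weeks it was 0, but 1 (Pax5) with limma on log2(FPKM + 1). Without the replicate block, that is with time left out of the fit over the 5 times, 0 genes were called, as with the block. Values of single genes changed sign in 30 cases, none of them called. With limma on log2(FPKM + 1) and log2(FPKM + 0.1), Pax5 stood at 0.56 and 0.65 over the 5 times, 0.04 and 0.11 at 24 hours, 0.66 and 0.91 at 4 weeks, and -0.05 and -0.07 for the slope in the controls. With both pseudocounts the log2 difference at 4 weeks was 0.05 for Cd79b, 0.15 for Ighd, 0.08 for Cd22 and 0.09 for Ms4a1, and at 32 weeks 0.12 for Ms4a1. When pools were left out in turn, the range over the 5 times was -0.23 to 0.06 for Ighm and -0.10 to 0.20 for Cd22. At 4 weeks it was -0.13 to 0.04 for Ighd, -0.21 to 0.16 for Pax5 and -0.17 to 0.08 for Ms4a1, and at 32 weeks -0.17 to 0.09 for Ms4a1. For the change with time it was -0.13 to 0.34 for Pax5, and for the slope in the controls -0.01 to 0.07 for Cd79b, -0.02 to 0.09 for Ighd, -0.05 to 0.08 for Cd22 and -0.03 to 0.10 for Ms4a1. The cause was not tested, except that the deposited FPKM of Pax5 does not follow its counts. A further 837 values kept their direction and their side of the threshold.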
